A study of Mus musculus with 23 samples.

Results

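Metallothioneins and the genes of the cellular zinc response were followed by RNA sequencing in mouse oocytes, zygotes and 2-cell embryos with or without a maternal deletion of Cxxc1, the gene of the CpG-binding protein CFP1, a subunit of a histone H3K4 methyltransferase complex. The 4 genes are Mt1, Mt2, Slc30a1 and Mtf1, taken by symbol from the 24506 entries of the deposited expression table. Mt1 was chosen by its measured FPKM, which was higher after the deletion, so its levels are described here with no test. The other 3 genes were chosen for their place in the same pathway, with results of these data already known. All 4 passed the filter on low values, which kept 13776 genes.

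The 23 libraries form 8 groups. The deletion groups are germinal vesicle (GV) oocytes of 3-week Cxxc1 fl/fl;Zp3-Cre females, GV oocytes of 3-month Cxxc1 fl/fl;Gdf9-Cre females, and zygotes and 2-cell embryos of Cxxc1 fl/fl;Zp3-Cre females mated with wild-type males. Each has a wild-type group of the same stage beside it, and the wild-type GV oocytes also come from females of 3 weeks and of 3 months. There are 3 libraries in each group except wild-type 2-cell embryos, which have 2. The female's age is not given for embryos, and the labels do not say whether controls carried floxed alleles or a Cre transgene. Zp3-Cre and Gdf9-Cre are driven by oocyte promoters, Gdf9-Cre from an earlier follicle stage, so the somatic cells of these females keep Cxxc1. The 2 GV models differ in both the Cre line and the age, which cannot be told apart. Separate animals are not stated for replicate libraries, so a p-value measures only the spread between these samples, and that spread may be technical.

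Metallothioneins are small cysteine-rich proteins that bind zinc and copper and buffer their free ions. MTF1 is a zinc-finger transcription factor that senses rising zinc and then binds metal response elements in the promoters of Mt1, Mt2 and Slc30a1, the last encoding ZnT1, the zinc exporter of the plasma membrane. Zinc is taken up in large amounts by maturing mouse oocytes and is released at egg activation.

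The promoters of the 3 MTF1 targets are shown because the metal response element in them is what places these genes in a common pathway. Each runs from 250 bases before to 50 bases after the annotated start, from RefSeq on GRCm38.p6, on the plus strand, 5′ to 3′. Capitals mark every match to the element's core, TGCACNC or TGCGCNC, searched on both strands (on the other strand it reads GNGTGCA or GNGCGCA). The windows are Mt1 at chr8:94178839-94179138, Mt2 at chr8:94172368-94172667 and Slc30a1 at chr1:191906531-191906830.
Mt1: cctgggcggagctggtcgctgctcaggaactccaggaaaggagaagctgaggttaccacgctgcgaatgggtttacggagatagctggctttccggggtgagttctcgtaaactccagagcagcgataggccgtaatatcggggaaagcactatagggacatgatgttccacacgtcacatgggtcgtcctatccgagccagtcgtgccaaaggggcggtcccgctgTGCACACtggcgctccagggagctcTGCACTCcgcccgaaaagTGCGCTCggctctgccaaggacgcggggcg
Mt2: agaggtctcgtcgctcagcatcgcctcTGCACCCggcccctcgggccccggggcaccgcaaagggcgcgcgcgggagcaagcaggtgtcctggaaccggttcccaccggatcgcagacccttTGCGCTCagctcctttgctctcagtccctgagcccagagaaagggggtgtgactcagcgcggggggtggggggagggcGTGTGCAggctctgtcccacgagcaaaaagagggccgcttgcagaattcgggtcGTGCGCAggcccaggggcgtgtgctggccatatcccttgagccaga
Slc30a1: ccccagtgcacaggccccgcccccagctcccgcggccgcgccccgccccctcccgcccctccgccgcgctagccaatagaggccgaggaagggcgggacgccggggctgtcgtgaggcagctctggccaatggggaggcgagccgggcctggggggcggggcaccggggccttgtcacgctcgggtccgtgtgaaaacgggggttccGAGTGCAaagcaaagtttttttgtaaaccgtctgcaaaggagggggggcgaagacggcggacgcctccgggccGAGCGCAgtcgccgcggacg
The Mt2 window held 4 cores, the Mt1 window 3 and the Slc30a1 window 2, none overlapping another. Of 32851 mouse promoter windows of the same length, 25.7% held at least 1 core, 7.11% at least 2, 1.97% at least 3 and 0.517% at least 4. The windows of the other metallothionein genes Mt3 and Mt4 held 1 core each, and the window of Mtf1 held none of these letters. The starts of Mt2 and Mt1 lie 6471 bases apart on the same strand. A match is a stretch of letters and not a measured binding site, and no binding or chromatin data were analysed here.

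**Figure D1:**
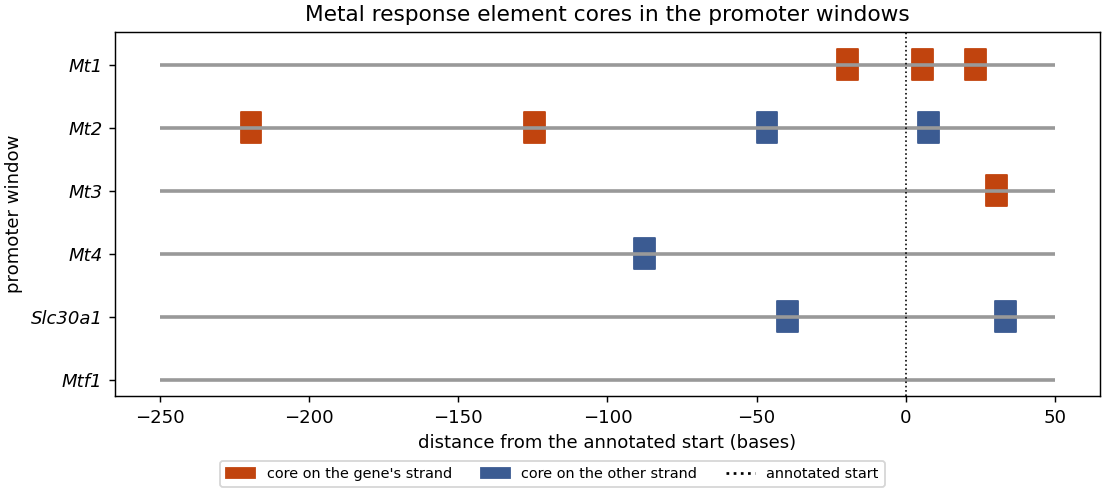
Positions of metal response element cores (TGCACNC or TGCGCNC, either strand) in promoter windows of metallothionein and zinc response genes, with distance from the annotated start in bases on the horizontal axis and colour for the strand of the match. Mt2 has 4 marks, Mt1 has 3 and Slc30a1 has 2, while Mt3 and Mt4 have 1 each and Mtf1 has none.

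Expression was given as FPKM, a fragment count divided by transcript length and library size, which allows levels of different genes to be set side by side within a library. Fold changes and tests are on log2(FPKM + 1), which understates changes of low genes, and a call needed a p under 0.05 in limma after Benjamini-Hochberg adjustment over all 13776 genes. FPKM holds no read counts, so the absolute depth is unknown. The lowest FPKM steps gave depths relative to the first wild-type 3-week library of between 0.511 and 1.49, and FPKM totals ran from 295901 to 420415. Cxxc1 itself fell by 4.27 in 3-week Zp3-Cre oocytes, by 4.30 in 3-month Gdf9-Cre oocytes, by 3.63 in Zp3-Cre zygotes and by 2.13 in Zp3-Cre 2-cell embryos on the log2 scale, in the direction the labels give. Among the deletion libraries the third Zp3-Cre 2-cell library stands apart: its correlations with the other 2 across genes were 0.942 and 0.936, against 0.983 between those 2. Oocyte markers were present throughout, with all 10 listed genes averaging at least 1 FPKM in every group except wild-type 2-cell embryos, where 9 did.

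In GV oocytes Mt1 was far higher after the deletion. It had 72.6, 81.1 and 81.3 FPKM in 3-week Zp3-Cre oocytes, against 4.89, 5.57 and 5.58 FPKM in 3-week wild-type oocytes. The groups did not overlap, and the lowest deletion library was many times above the highest wild-type one. The means of 78.3 ± 4.96 and 5.35 ± 0.391 FPKM (SD, n = 3 each) give a 14.6-fold higher level in Zp3-Cre oocytes, a log2 change of 3.64 (SE 0.22). This moved Mt1 to a level above that of 91.5% of the genes tested in Zp3-Cre oocytes, against 47.3% in wild-type oocytes.

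In the 3-month model Mt1 had 6.84, 12.8 and 7.48 FPKM in Gdf9-Cre oocytes, against 0.556, 1.58 and 1.49 FPKM in wild-type oocytes. Here too the groups did not overlap. The Gdf9-Cre libraries lay above the 4.89 to 5.58 FPKM of 3-week wild-type oocytes and far below the 72.6 to 81.3 FPKM of 3-week Zp3-Cre oocytes. The mean ratio was 7.48 and the log2 change 2.17 (SE 0.22). In zygotes Mt1 had 47.6, 47.9 and 39.3 FPKM in the Zp3-Cre group, against 8.07, 9.74 and 7.79 FPKM in wild type. The mean ratio was 5.26 and the log2 change 2.27 (SE 0.22), again without overlap.

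At the 2-cell stage the order turned round. Mt1 had 74.2, 95.9 and 99.4 FPKM in Zp3-Cre embryos, against 217 and 119 FPKM in wild-type embryos. All 3 Zp3-Cre libraries lay below both wild-type libraries, which themselves differed widely. Mt1 averaged 89.8 ± 13.7 FPKM in Zp3-Cre embryos (SD, n = 3) and 168 ± 68.8 FPKM in wild-type embryos (SD, n = 2), a log2 change of -0.85 (SE 0.25). Without the first wild-type library the log2 change was -0.42, and without the second it was -1.27. Without the third Zp3-Cre library it was -0.92.

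Ordered by mean, Mt1 was lowest in wild-type 3-month oocytes and rose in turn through wild-type 3-week oocytes, wild-type zygotes, Gdf9-Cre 3-month oocytes, Zp3-Cre zygotes, Zp3-Cre 3-week oocytes, Zp3-Cre 2-cell embryos and wild-type 2-cell embryos. In that order 2 pairs of neighbours overlapped in range, namely Gdf9-Cre oocytes with wild-type zygotes and Zp3-Cre 2-cell embryos with Zp3-Cre 3-week oocytes. Both overlaps depend on how libraries are scaled. Rescaled by median-of-ratios, Mt1 ran from 5.08 to 9.57 in Gdf9-Cre oocytes and from 12.8 to 16.7 in wild-type zygotes, which reverses their order. It ran from 59.3 to 67.5 in Zp3-Cre 3-week oocytes and from 76.3 to 103 in Zp3-Cre 2-cell embryos.

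**Figure D2:**
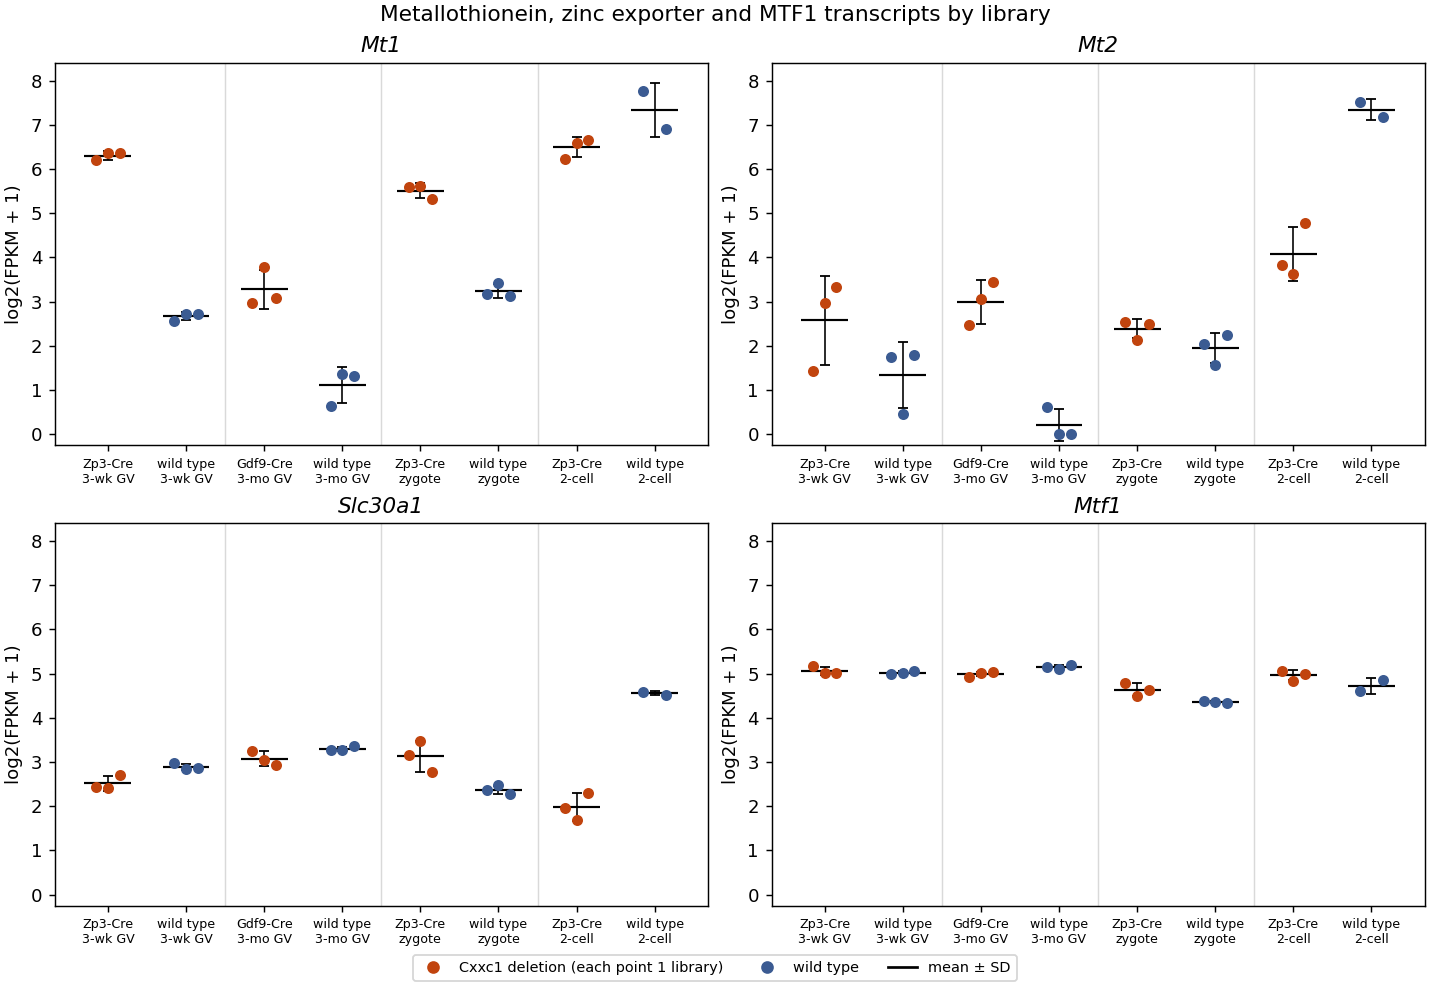
Level of Mt1, Mt2, Slc30a1 and Mtf1 in each library as log2(FPKM + 1), by group, with deletion groups left of their wild-type groups. Points are libraries and bars are the mean ± SD. Mt1 lies far above wild type in Zp3-Cre GV oocytes and zygotes, Mt2 and Slc30a1 lie far below wild type in Zp3-Cre 2-cell embryos, and Mtf1 stays within 19.2 to 35.5 FPKM in all 23 libraries.

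Mt2, the neighbour and close relative of Mt1, was a low transcript in oocytes and zygotes, and its clearest changes were a rise in 3-month Gdf9-Cre oocytes and a fall in Zp3-Cre 2-cell embryos. Reads of the Mt1 and Mt2 copies could have been divided between them by the authors' quantification, so the values of each are uncertain to that extent. In 3-month oocytes Mt2 had 4.52, 7.33 and 9.85 FPKM in the Gdf9-Cre group, against 0.530 FPKM in 1 wild-type library and a listed 0 in the other 2. The groups did not overlap and the log2 change was 2.78 (SE 0.43, adjusted p = 2.89e-05, limma). In this comparison 49.5% of the genes tested were called, 34.2% higher and 15.2% lower in Gdf9-Cre oocytes.

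In 3-week oocytes Mt2 had 1.71, 6.80 and 9.07 FPKM in the Zp3-Cre group, against 2.35, 0.381 and 2.47 FPKM in wild type. The lowest Zp3-Cre library fell inside the wild-type range, and the other 2 lay above it. Relative depths of these Zp3-Cre libraries were 1.32, 0.611 and 0.511 in the same order, so the 2 higher values come from the shallower libraries. The part of depth in this difference was not tested. The log2 change was 1.24 (SE 0.43, adjusted p = 0.0344, limma), in a comparison with 29.6% of genes called, 18.3% higher and 11.3% lower. That call was lost without wild-type replicate 2 (log2 change 0.81, adjusted p = 0.201), without Zp3-Cre replicate 2 (1.05, adjusted p = 0.124) and without Zp3-Cre replicate 3 (0.87, adjusted p = 0.186), and over all alternatives its adjusted p ranged between 0.00228 and 0.201.

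The Mt2 change in zygotes missed the threshold. Mt2 had 4.82, 3.39 and 4.63 FPKM in Zp3-Cre zygotes, against 3.10, 1.97 and 3.74 FPKM in wild-type zygotes. The ranges overlapped and the log2 change was 0.44 (SE 0.43, adjusted p = 0.449, limma), with 46.7% of genes called in the comparison, 35.3% higher and 11.4% lower. Other scalings of the libraries brought the value to -0.030 and -0.091.

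In 2-cell embryos Mt2 fell. It had 13.3, 11.3 and 26.4 FPKM in Zp3-Cre embryos, against 182 and 143 FPKM in wild-type embryos. No Zp3-Cre library came near the wild-type libraries, and the highest was the third one, which stands apart. The log2 change was -3.27 (SE 0.48, adjusted p = 5.54e-06, limma), and -3.62 (adjusted p = 2.26e-06) without that library. In this comparison 66.5% of genes were called, 37.1% higher and 29.4% lower.

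The balance between the 2 metallothioneins differed by stage and genotype. Mt1 exceeded Mt2 by 8.96 to 42.4 times in Zp3-Cre 3-week oocytes, against 2.09 to 14.6 times in wild-type 3-week oocytes. In zygotes the ratio was 8.48 to 14.1 in the Zp3-Cre group, against 2.08 to 4.95 in wild type, with no overlap. It was 3.77 to 8.51 in Zp3-Cre 2-cell embryos, against 0.833 to 1.19 in wild-type 2-cell embryos, where the copies were about level. In 3-month Gdf9-Cre oocytes it lay between 0.759 and 1.75, against 1.05 in the wild-type library that had any Mt2. Summed over both copies, metallothionein transcripts reached 74.3 to 90.3 FPKM in Zp3-Cre 3-week oocytes, against 5.95 to 8.05 FPKM in wild type. They reached 87.5 to 126 FPKM in Zp3-Cre 2-cell embryos, against 263 to 399 FPKM in wild-type 2-cell embryos. These ratios and sums rest on Mt1 and are a description.

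**Figure D3:**
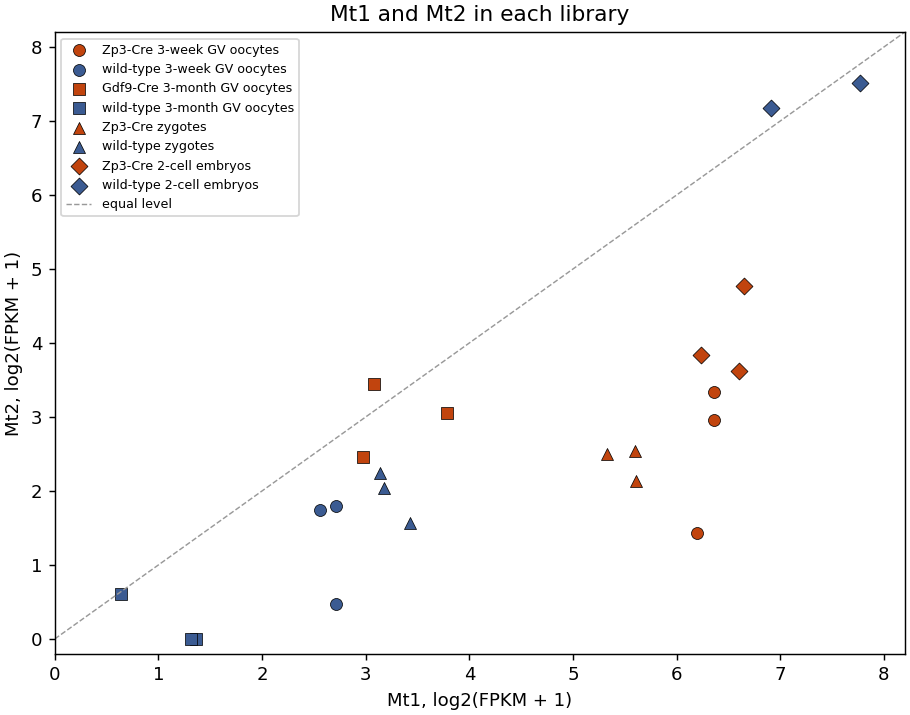
Mt1 against Mt2 in each of the 23 libraries, both axes as log2(FPKM + 1), coloured by genotype and marked by stage. The wild-type 2-cell libraries sit at the top right with nearly equal levels of both genes, and the Zp3-Cre GV and zygote libraries sit at high Mt1 and low Mt2.

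Slc30a1, which exports zinc across the plasma membrane, also had its largest change in 2-cell embryos, where it fell. It had 2.89, 2.22 and 3.93 FPKM in Zp3-Cre embryos, against 23.04 and 21.99 FPKM in wild-type embryos. The wild-type libraries lay close together, far above all Zp3-Cre ones. The log2 change was -2.57 (SE 0.18, adjusted p = 1.97e-10, limma), and -2.73 without the third Zp3-Cre library. The gene stood above 39.9% of the genes tested in Zp3-Cre embryos, against 78.3% in wild-type embryos.

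In zygotes the direction was the opposite. Slc30a1 had 7.90, 10.05 and 5.83 FPKM in the Zp3-Cre group, against 4.12, 4.54 and 3.86 FPKM in wild type. All Zp3-Cre zygotes were higher, and the log2 change was 0.76 (SE 0.16, adjusted p = 5.27e-04, limma). The call was lost when libraries were rescaled by median-of-ratios (0.25, adjusted p = 0.160) or by quantiles (0.20, adjusted p = 0.210). The median of all genes in this comparison was itself 0.22, and these scalings moved it by -0.26 and -0.29.

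In GV oocytes Slc30a1 did not pass in the main fit on the deposited scale. It had 4.40, 4.30 and 5.53 FPKM in 3-week Zp3-Cre oocytes, against 6.86, 6.16 and 6.25 FPKM in wild type, a log2 change of -0.38 (SE 0.16, adjusted p = 0.0849, limma). All 3 Zp3-Cre libraries were below all 3 wild-type libraries. In 3-month oocytes it had 8.51, 7.27 and 6.62 FPKM in the Gdf9-Cre group, against 8.65, 8.71 and 9.23 FPKM in wild type, a log2 change of -0.23 (SE 0.16, adjusted p = 0.255, limma). Again the groups did not overlap, and under the median-of-ratios scaling both comparisons passed, at -0.46 (adjusted p = 0.0248) and -0.43 (adjusted p = 0.0202). With array weights both passed too, at -0.42 (adjusted p = 0.00353) and -0.23 (adjusted p = 0.0421).

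**Figure D4:**
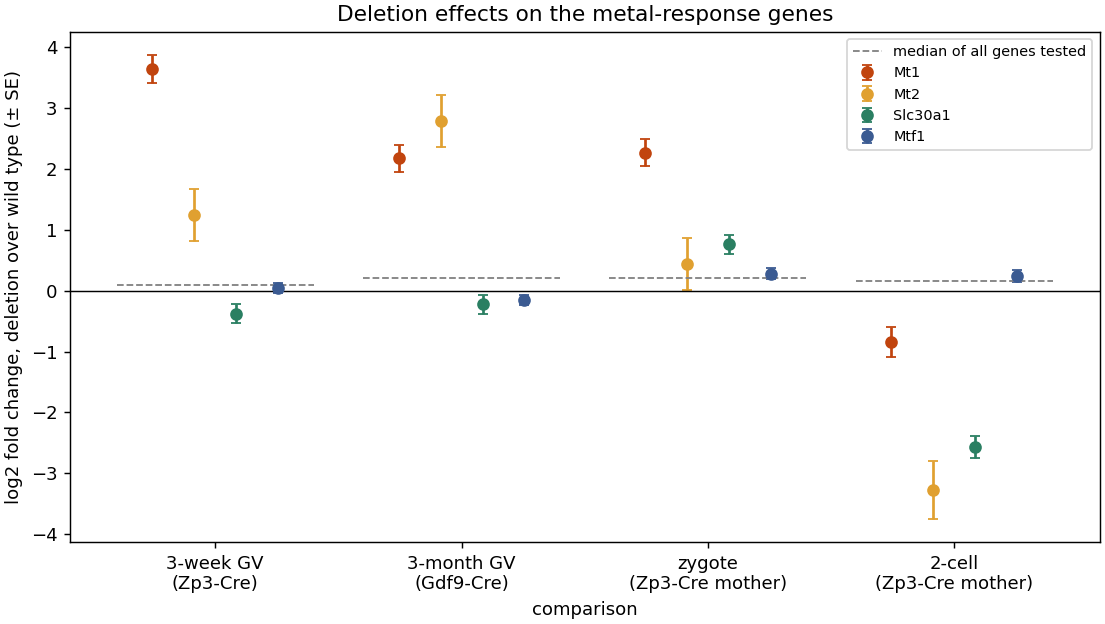
Log2 change of the 4 genes in each deletion comparison (deletion minus wild type, log2(FPKM + 1) scale), with bars for the SE and dashed lines for the median of all genes tested. Mt1 and Mt2 are above 0 in both GV comparisons and below 0 in 2-cell embryos, Slc30a1 is above 0 in zygotes and at -2.57 in 2-cell embryos, and Mtf1 stays between -0.15 and 0.28.

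Mtf1, the zinc sensor, was an evenly expressed transcript of moderate level, above 77.5% to 82.2% of the genes tested in every group. In 3-week oocytes it averaged 32.6 ± 2.12 FPKM in the Zp3-Cre group and 31.5 ± 0.803 FPKM in wild type (SD, n = 3 each), with a log2 change of 0.044 (SE 0.086, adjusted p = 0.760, limma). In 3-month oocytes it averaged 30.9 ± 1.15 FPKM in the Gdf9-Cre group and 34.4 ± 1.04 FPKM in wild type (SD, n = 3 each), with a log2 change of -0.15 (SE 0.086, adjusted p = 0.153, limma). Neither comparison passed in the main fit on the deposited scale. The 3-month groups did not overlap, with 29.6 to 31.8 FPKM in Gdf9-Cre oocytes against 33.4 to 35.5 FPKM in wild type. There Mtf1 was called lower in limma under median-of-ratios scaling (-0.39, adjusted p = 0.00270) and quantile normalization (-0.33, adjusted p = 0.00753). It was also called with array weights (adjusted p = 0.0303) and with only the groups compared (adjusted p = 0.0238).

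In zygotes Mtf1 had 26.8, 21.6 and 23.6 FPKM in the Zp3-Cre group, against 19.8, 19.6 and 19.2 FPKM in wild type. In 2-cell embryos it had 32.4, 27.7 and 30.7 FPKM in the Zp3-Cre group, against 23.2 and 27.9 FPKM in wild type. The zygote groups did not overlap, and the 2-cell groups did. The log2 changes were 0.28 (SE 0.086, adjusted p = 0.0111) and 0.24 (SE 0.096, adjusted p = 0.0362) in limma, and under the median-of-ratios scaling they were -0.30 (adjusted p = 0.0114) and -0.033, so the sign of this small difference depends on how libraries are scaled. The zygote call was also lost without Zp3-Cre replicate 1 (0.20, adjusted p = 0.0819). The 2-cell call was also lost without wild-type replicate 1 (0.11, adjusted p = 0.415), without Zp3-Cre replicate 1 (0.19, adjusted p = 0.119) and without Zp3-Cre replicate 3 (0.23, adjusted p = 0.0653).

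The deletion effect at 1 stage was tested against that at another. For Mt2 the 2-cell effect minus the zygote effect was -3.71 (SE 0.64, adjusted p = 5.94e-05, limma), and for Slc30a1 it was -3.33 (SE 0.24, adjusted p = 7.92e-10). For Mtf1 it was -0.043 (adjusted p = 0.806). In this test 53.9% of genes were called, 21.5% higher and 32.4% lower. The zygote effect minus the 3-week GV effect was 1.14 for Slc30a1 (SE 0.23, adjusted p = 6.57e-04), -0.80 for Mt2 (adjusted p = 0.371) and 0.24 for Mtf1 (adjusted p = 0.167), with 29.4% of genes called, 22.4% higher and 7.01% lower. The Gdf9-Cre 3-month effect minus the Zp3-Cre 3-week effect passed for none of the 3 in limma, at 1.54 for Mt2 (adjusted p = 0.154, unadjusted p = 0.0198), 0.15 for Slc30a1 and -0.20 for Mtf1, and 4.89% of all genes were called, 3.2% higher and 1.68% lower. With array weights the Mt2 difference was called, at 2.01 (adjusted p = 0.00843). Neighbouring comparisons share libraries and are not independent of each other.

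Along wild-type development the metallothioneins and the exporter were all high at the 2-cell stage. Mt1 averaged 168 FPKM in 2-cell embryos and 8.53 FPKM in zygotes, a 19.7-fold higher level that is given as a description. Mt2 averaged 163 ± 27.5 FPKM in 2-cell embryos (SD, n = 2) and 2.94 ± 0.898 FPKM in zygotes (SD, n = 3), a log2 change of 5.39 (SE 0.48, adjusted p = 3.77e-09, limma). Slc30a1 averaged 22.5 ± 0.742 FPKM in 2-cell embryos (SD, n = 2) and 4.17 ± 0.345 FPKM in zygotes (SD, n = 3), a log2 change of 2.19 (SE 0.18, adjusted p = 1.12e-09). In wild-type 2-cell embryos Mt1 and Mt2 stood above 98.5% and 98.4% of the genes tested. Mtf1 differed less, by 0.37 (SE 0.096, adjusted p = 0.00207), and its sign turned under the other scalings (-0.056 and -0.019). In this comparison 68.5% of genes were called, 44.5% higher and 24% lower in 2-cell embryos.

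Between wild-type zygotes and wild-type 3-week oocytes, Mt2 did not pass in the deposited scale (0.62, adjusted p = 0.212, limma) but was called higher in zygotes under the median-of-ratios scaling (1.28, adjusted p = 0.00779) and under quantile normalization (1.58, adjusted p = 0.00159), while Mtf1 and Slc30a1 were lower in zygotes by the deposited scale. Mtf1 fell by 0.66 (adjusted p = 7.87e-07) and Slc30a1 fell by 0.52 (adjusted p = 0.00656), but under the median-of-ratios and quantile scalings the values were 0.21 and 0.12 for Mtf1 and 0.25 and 0.60 for Slc30a1. The median of all genes fell by 0.47 in this comparison, in which 70.1% of genes were called, 19.4% higher and 50.7% lower, so no direction is read for these genes. Between wild-type oocytes of 3 months and of 3 weeks none of the 3 tested genes passed in limma: Mt2 was at -1.13 (adjusted p = 0.163), Slc30a1 at 0.41 (adjusted p = 0.176) and Mtf1 at 0.12 (adjusted p = 0.554). At an unadjusted p under 0.05 the first 2 of these would pass (0.0160 and 0.0186), and 3.95% of all genes were called, 2.25% higher and 1.7% lower. With array weights Mt2 (-1.16, adjusted p = 0.0115) and Slc30a1 (0.41, adjusted p = 0.00229) were called, as were Mt2 with a pseudocount of 0.1 (-2.97, adjusted p = 0.0189) and Slc30a1 with only the groups compared in the fit (adjusted p = 0.0151).

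Markers of other cells were checked beside these results, because each library is bulk RNA, in which fewer cells of a type and less RNA per cell cannot be told apart. The summed level of 19 granulosa and cumulus cell markers was 96.0 to 184 FPKM in Gdf9-Cre 3-month oocytes, against 40.0 to 43.2 FPKM in wild type. Of the 14 markers tested, 10 were called higher and none lower, beside 34.2% and 15.2% of all genes. In Gdf9-Cre libraries 1, 2 and 3 this sum was 184, 110 and 96.0 FPKM, and the sum of blood cell markers was 7.49, 10.5 and 10.7 FPKM. Mt1 had 6.84, 12.8 and 7.48 FPKM in these libraries, and Mt2 had 4.52, 7.33 and 9.85 FPKM. The part of other cells in the Mt1 and Mt2 levels of that model was not tested. In 3-week oocytes the granulosa and cumulus sum was 65.2 to 78.7 FPKM in the Zp3-Cre group, against 52.0 to 65.8 FPKM in wild type. Of 14 markers, 1 was called higher and none lower in 3-week oocytes, beside 18.3% and 11.3% of all genes. There 10 of the 19 markers averaged at least 1 FPKM in Zp3-Cre oocytes, against 8 in wild type, and Ptx3 and Tnfaip6 were listed at 0 in both groups. In zygotes the sum was 33.1 to 38.3 FPKM in the Zp3-Cre group, against 22.4 to 26.1 FPKM in wild type. Of 14 markers, 3 were called higher and none lower in zygotes, beside 35.3% and 11.4% of all genes. Foxl2, Hsd17b1 and Ptx3 were listed at 0 in both zygote groups.

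In Zp3-Cre 2-cell embryos the granulosa and cumulus sum was 26.7, 23.8 and 159 FPKM, against 50.4 and 53.8 FPKM in wild-type 2-cell embryos. The third library carried 15 of the 19 markers at 1 FPKM or more. Blood cell markers reached 33.8 FPKM in the same library and 6.01 to 6.25 FPKM in the other Zp3-Cre libraries, against 5.64 and 12.2 FPKM in wild type. Oviduct epithelium markers summed to 5.39 to 32.1 FPKM in Zp3-Cre 2-cell embryos, against 28.9 to 37.9 FPKM in wild type. In the other stages the oviduct and blood lists summed to 6.24 to 12.8 and 3.58 to 4.61 FPKM in Zp3-Cre 3-week oocytes, against 1.30 to 2.49 and 1.74 to 2.31 FPKM in wild type. In Gdf9-Cre 3-month oocytes they summed to 27.3 to 43.2 and 7.49 to 10.7 FPKM, against 2.48 to 3.18 and 0.429 to 1.46 FPKM in wild type. In Zp3-Cre zygotes they summed to 1.93 to 3.99 and 5.46 to 11.1 FPKM, against 1.16 to 3.22 and 4.43 to 14.2 FPKM in wild type. These sums rest on few genes. Of the 6 oviduct markers, 1 averaged at least 1 FPKM in Gdf9-Cre 3-month oocytes, against 1 in wild type. In Zp3-Cre 3-week oocytes 2 did, against 0 in wild type. Of the 8 blood markers, 2 did in Gdf9-Cre 3-month oocytes, against 0 in wild type, and 1 in each 3-week group. The 7 markers of the 2-cell embryo summed to 16.6 to 34.9 FPKM in Zp3-Cre 2-cell embryos, against 165 to 214 FPKM in wild type, and the 10 oocyte markers to 4323 to 4747 FPKM, against 1698 to 2023 FPKM. These stage markers moved with the 2-cell results for Mt2 and Slc30a1. Their sums also differed at the earlier stages. The 2-cell markers summed to 16.9 to 22.4 FPKM in Zp3-Cre 3-week oocytes, against 4.11 to 4.95 FPKM in wild type, to 27.2 to 41.2 FPKM in Gdf9-Cre 3-month oocytes, against 4.50 to 5.45 FPKM in wild type, and to 2.89 to 4.88 FPKM in Zp3-Cre zygotes, against 0.965 to 1.09 FPKM in wild type. Of these 7 markers, 3, 4 and 2 were called higher in these comparisons, in that order, and none lower. Of all genes, 18.3%, 34.2% and 35.3% were called higher there. Zfp352, Tdpoz3 and Tdpoz4 were listed at 0 in all Zp3-Cre 3-week and Gdf9-Cre 3-month libraries. The oocyte markers summed to 7237 to 8020 FPKM in Zp3-Cre 3-week oocytes, against 9322 to 9435 FPKM in wild type, and to 7762 to 8008 FPKM in Gdf9-Cre 3-month oocytes, against 8822 to 9047 FPKM in wild type. Of these 10 markers, 1 was called higher and 4 lower at 3 weeks, and 2 higher and 5 lower at 3 months. Of all genes, 18.3% were called higher and 11.3% lower at 3 weeks, and 34.2% and 15.2% at 3 months. In Zp3-Cre zygotes the oocyte markers summed to 5160 to 5892 FPKM, against 3980 to 4425 FPKM in wild type. There 8 of 10 were called higher and 1 lower, beside 35.3% and 11.4% of all genes. The part of developmental stage in the members' results was not tested.

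The remaining zinc transporters changed gene by gene. Of the 9 other ZnT exporters listed, 6 were tested. Of these, 1 was called higher and 1 lower in Zp3-Cre 3-week oocytes, 1 and 1 in Gdf9-Cre 3-month oocytes, 2 and 1 in Zp3-Cre zygotes and 1 and 3 in Zp3-Cre 2-cell embryos. Their median log2 changes were -0.11, -0.0021, 0.11 and -0.45, against 0.093, 0.20, 0.22 and 0.16 over all genes tested. Under the median-of-ratios scaling the counts were 0 and 2, 0 and 2, 2 and 2, and 1 and 4. With 2, 2, 3 and 4 of 6 genes called, the family lies near or below the shares of all genes given above.

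Slc30a2 (ZnT2, which loads zinc into vesicles) fell in GV oocytes of both models. It averaged 0.506 ± 0.0644 FPKM in Gdf9-Cre 3-month oocytes and 4.93 ± 0.263 FPKM in wild type (SD, n = 3 each), a log2 change of -1.98 (adjusted p = 5.39e-06, limma), and the 3-week value was -1.87 (adjusted p = 2.60e-05). Slc30a5 (ZnT5), which brings zinc into the secretory pathway, averaged 27.3 ± 0.694 FPKM in Zp3-Cre zygotes and 6.42 ± 1.14 FPKM in wild-type zygotes (SD, n = 3 each), a log2 change of 1.94 (adjusted p = 1.76e-11). Slc30a4 (ZnT4), a vesicular exporter, averaged 22.4 ± 0.309 FPKM in Zp3-Cre zygotes and 5.38 ± 0.848 FPKM in wild-type zygotes (SD, n = 3 each), a log2 change of 1.88 (adjusted p = 1.07e-09). In the deposited scale the Zp3-Cre zygote levels lay close to those of 3-week Zp3-Cre oocytes, which averaged 27.4 FPKM for Slc30a5 and 20.9 FPKM for Slc30a4. The median-of-ratios factors were 1.23 to 1.27 in these oocyte libraries and 0.912 to 0.974 in Zp3-Cre zygotes. The closeness therefore depends on how libraries are scaled.

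Of the 14 ZIP importers listed, which carry zinc into the cytosol, 12 were tested. Of these, 1 was called higher and 2 lower in Zp3-Cre 3-week oocytes, 2 and 1 in Gdf9-Cre 3-month oocytes, 2 and 1 in Zp3-Cre zygotes and 4 and 5 in Zp3-Cre 2-cell embryos, with medians of 0.057, 0.26, 0.14 and -0.26. The totals of 3, 3, 3 and 9 of 12 are below the shares of all genes called up to the zygote and near it in 2-cell embryos. Without the third Zp3-Cre 2-cell library the 2-cell counts were 3 higher and 6 lower, and under the median-of-ratios scaling 4 and 6. Slc39a4 (ZIP4), a plasma membrane importer, averaged 0.539 ± 0.178 FPKM in Zp3-Cre 2-cell embryos (SD, n = 3) and 22.4 ± 10.2 FPKM in wild-type 2-cell embryos (SD, n = 2), a log2 change of -3.86 (adjusted p = 2.04e-12, limma). Its mean stayed at or under 0.241 FPKM in all oocyte and zygote groups. Slc39a1 (ZIP1), another plasma membrane importer, averaged 3.99 ± 3.88 FPKM in Zp3-Cre 2-cell embryos (SD, n = 3) and 21.3 ± 1.37 FPKM in wild type (SD, n = 2), a log2 change of -2.43 (adjusted p = 5.98e-06).

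Slc39a8 (ZIP8) fell in 3-week oocytes, with 0.274 ± 0.0723 FPKM in the Zp3-Cre group and 5.87 ± 1.37 FPKM in wild type (SD, n = 3 each), a log2 change of -2.41 (adjusted p = 3.74e-10, limma). Among the 8 groups its mean was above 1 FPKM in wild-type 3-week oocytes alone, and in wild-type 3-month oocytes it was 0.029 FPKM. The importers Slc39a5, Slc39a6 and Slc39a10 were singled out after their values were seen. Slc39a5 rose in all 4 deletion comparisons, by 1.62, 1.80, 1.41 and 1.05 (adjusted p at most 0.0011). Over the alternatives every call was kept, but the size of the rise varied widely. It ran from 1.19 to 2.84 in zygotes and from 0.94 to 3.04 in 2-cell embryos. Slc39a6 (ZIP6) and Slc39a10 (ZIP10), importers with known roles in the zinc uptake of mouse oocytes, were the most abundant importers in GV oocytes, with Slc39a6 at 131 ± 7.30 FPKM in Zp3-Cre 3-week oocytes and 126 ± 5.29 FPKM in wild type (SD, n = 3 each). Slc39a6 did not pass in either GV comparison (0.054 and 0.042) and rose by 1.59 in zygotes (adjusted p = 2.22e-09), with 55.3 ± 12.5 FPKM in the Zp3-Cre group and 17.5 ± 2.49 FPKM in wild type (SD, n = 3 each). Slc39a10 fell in oocytes and zygotes, most in 3-month oocytes, with 38.2 ± 4.47 FPKM in the Gdf9-Cre group and 69.3 ± 1.09 FPKM in wild type (SD, n = 3 each, log2 change -0.85, adjusted p = 9.81e-08). In 2-cell embryos it rose by 0.66.

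**Figure D5:**
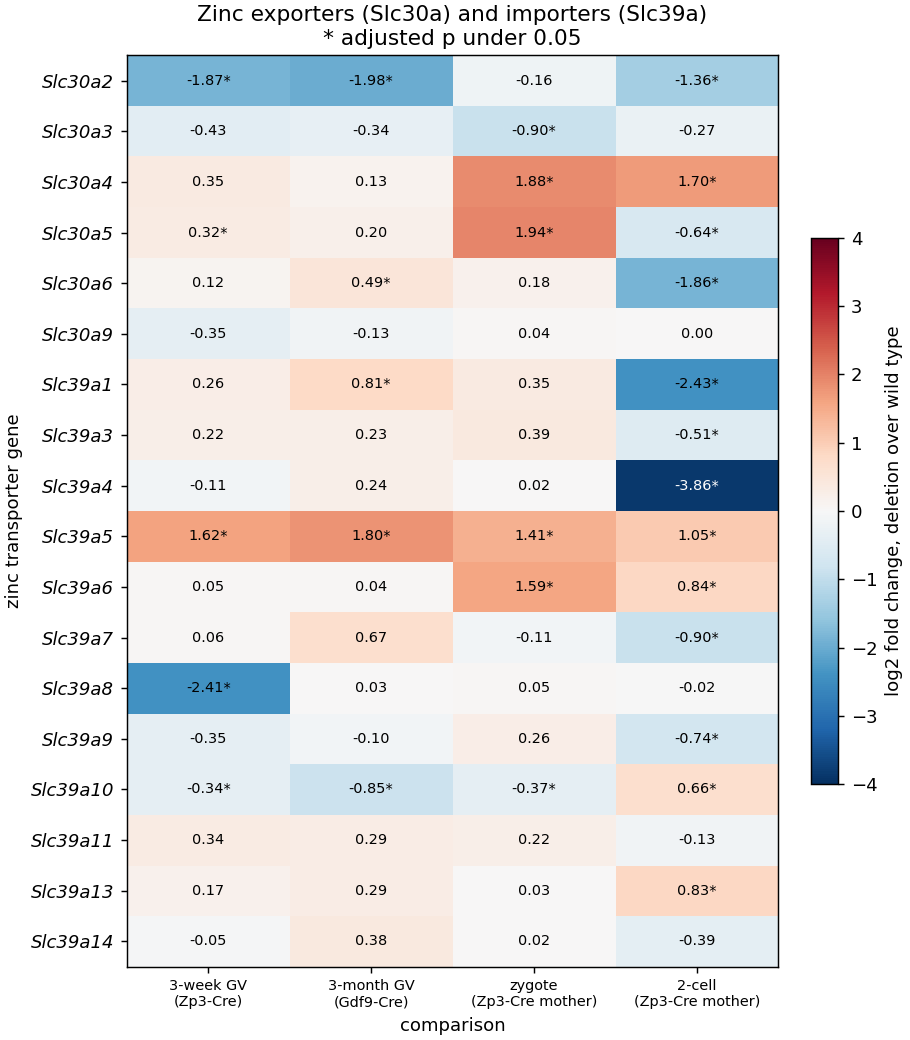
Heat map of the log2 change of the tested ZnT exporters other than Slc30a1 and the tested ZIP importers (rows) in the 4 deletion comparisons (columns; deletion minus wild type, log2(FPKM + 1) scale), with each value printed and an asterisk where it was called. Slc39a4 at -3.86 and Slc39a1 at -2.43 are the lowest of the genes drawn in 2-cell embryos, Slc30a5 and Slc30a4 are the highest of them in zygotes, and Slc39a5 is above 0 in all 4 columns.

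Mt4, a metallothionein of squamous epithelia, was tested and passed in no deletion comparison in limma, adjusted or unadjusted, with log2 changes of 0.23, 0.057, -0.55 and -0.66 in the order of stages. Under the median-of-ratios scaling it was called lower in Zp3-Cre zygotes, at -1.12. Mt3 reached at most 1.07 FPKM in any library and was not tested. Of 10 genes that regulate metallothionein transcription other than Mtf1, 1 was called higher and 2 lower in Zp3-Cre 3-week oocytes, 2 and 4 in Gdf9-Cre 3-month oocytes, 2 and 1 in Zp3-Cre zygotes and 2 and 4 in Zp3-Cre 2-cell embryos, while under the median-of-ratios scaling the zygote counts were 0 and 5. The totals of 3, 6, 3 and 6 of 10 stand beside 29.6%, 49.5%, 46.7% and 66.5% of all genes called in these comparisons. The 3 with the largest changes fell in 2-cell embryos. Sp1 averaged 4.35 ± 1.4 FPKM in Zp3-Cre embryos (SD, n = 3) and 15.1 ± 0.547 FPKM in wild type (SD, n = 2), a log2 change of -1.63 (adjusted p = 5.47e-07, limma). Ep300, the gene of a histone acetyltransferase that acts with MTF1, had a log2 change of -1.58 (adjusted p = 1.05e-09), and Usf1 one of -1.52 (adjusted p = 3.07e-06). Nfe2l2, the gene of the oxidative stress factor NRF2, was singled out after its values were seen. It fell in all 4 comparisons, by 1.02, 0.95, 0.83 and 0.79 (adjusted p = 3.79e-05, 2.94e-05, 9.44e-05 and 3.05e-04, limma). The 2-cell call was lost with only the groups compared in the fit (adjusted p = 0.0613).

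Across the 23 libraries the 4 genes did not all follow each other. On the log2 scale Pearson's r was 0.77 between Mt1 and Mt2, 0.35 between Mt2 and Slc30a1, 0.00084 between Mt1 and Slc30a1, and -0.18 and -0.20 between Mtf1 and the metallothioneins. These correlations describe libraries that fall into 8 groups and share a stage, and have no test. Among 7574 genes with a mean of at least 5 FPKM, the 5 most like Mt2 over these libraries were Crebzf (r = 0.945), Chmp4b (0.940), Gm428 (0.939), Mknk2 (0.935) and Chka (0.926). All 5 averaged lower in Zp3-Cre 2-cell embryos, for example Chka with 4.77 FPKM in Zp3-Cre embryos and 77.4 FPKM in wild-type embryos. They were picked by their likeness to Mt2 over these same libraries, so this lower level is not a separate result. The 5 most like Mt1 were Aggf1 (r = 0.860), Otud6b (0.854), Cdc34 (0.853), A230046K03Rik (0.847) and Luc7l2 (0.840). Aggf1 averaged 28.6 FPKM in Zp3-Cre 2-cell embryos and 49.3 FPKM in wild-type 2-cell embryos, and Otud6b averaged 29.5 FPKM in Zp3-Cre and 43.9 FPKM in wild-type 2-cell embryos. The other 3 were not lower on average at that stage: Cdc34 averaged 246 FPKM in Zp3-Cre and 243 FPKM in wild-type 2-cell embryos, Luc7l2 averaged 41.0 FPKM in Zp3-Cre and 38.9 FPKM in wild type, and A230046K03Rik averaged 11.1 FPKM in Zp3-Cre and 8.47 FPKM in wild type.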

How the data were processed

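The deposited values were FPKM per gene, which the authors gave in 1 table for all samples, with a column for each of the 23 libraries. RNA was extracted on micro-scale columns and sequenced from NEBNext Ultra libraries, per the labels' protocols. CASAVA 1.4 and SAMtools stand beside TopHat2 2.0.12 and Cufflinks 2.2.1 in the submitters' processing notes, which name both mm10 and mm9. Strand, poly(A) selection and annotation were not given in the sources used here. Overlapping genes, sense and antisense, therefore cannot be separated. Bisulfite data were not analysed here.

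From the deposited FPKM, log2(FPKM + 1) was computed. Genes with at least 1 FPKM in at least 2 libraries (13776 of 24506 entries) were fitted with limma 3.58.1 in R 4.3.3, with 8 group means, a mean-variance trend and 15 residual degrees of freedom. P-values were adjusted by Benjamini-Hochberg over all genes tested. The fit was tested on simulated data. Mt1 had no test. Alternatives were pseudocounts of 0.1 and 0.5, no filter, a filter of 3 libraries, median-of-ratios and quantile scaling, array weights, a replicate block, only the groups compared, and leaving out each library. List counts under the scalings and without the third Zp3-Cre 2-cell library were added after seeing the data.

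The members, the 8 pathway lists (ZnT exporters, ZIP importers, other metallothioneins, regulators, copper, iron, glutathione and NRF2 targets, glucocorticoid receptor targets) and the 5 marker lists (oocyte, 2-cell embryo, granulosa and cumulus, oviduct, blood) were chosen with earlier results of these data known. Named genes were up to 3 called genes per pathway list with the largest change in any deletion comparison, unless said otherwise. For likeness, the 5 genes with the highest Pearson's r were named. Promoters came from RefSeq (GRCm38.p6) and all members' symbols matched. No pairing of libraries by replicate number was seen, and the main fit used none. In the table, 27 names had been turned into dates by a spreadsheet and were not used by name.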

Additional observations from a re-analysis of the deposited data

Results flagged for a closer look

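Deletion effects that differed between stages were the reason for a closer look. For Mt2 and Slc30a1 the difference itself was tested in limma with Benjamini-Hochberg adjustment over all genes. The Slc30a1 effect in zygotes minus that in 3-week GV oocytes was 1.14 (adjusted p = 6.57e-04). The effect in 2-cell embryos minus that in zygotes was -3.71 for Mt2 (adjusted p = 5.94e-05) and -3.33 for Slc30a1 (adjusted p = 7.92e-10). At the 2-cell stage all 3 Zp3-Cre libraries were below both wild-type libraries for both genes, while all 3 Zp3-Cre zygote libraries were above all 3 wild-type zygote libraries for Slc30a1. Rescaled by median-of-ratios, the zygote ranges of Slc30a1 overlapped, at 6.53 to 10.5 in the Zp3-Cre group and 6.35 to 7.80 in wild type. For Mt1, the 2-cell effect of -0.85 ran opposite to the other 3 deletion comparisons, with every Zp3-Cre 2-cell library below the wild-type ones and every deletion library above wild type elsewhere. That difference was not tested, because Mt1 was chosen by its higher level after the deletion.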

How the results depend on the processing

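The members' 16 deletion results were recomputed under 236 alternatives in all, and 193 were kept. For the 3 tested genes, kept means the same direction and call. Mt1 has no call, so for it kept means the same direction and a move of less than 1 SD within groups. Mt2 in 3-month oocytes and the Mt2 and Slc30a1 values in 2-cell embryos did so under every one run. Mt2 in 3-month oocytes ran between 2.29 (quantile) and 5.24 (pseudocount 0.1). Mt1 in 2-cell embryos also counts as kept under every one, though it spanned -1.27 to -0.42. The SD there is large because the wild-type libraries had 217 and 119 FPKM, so kept says little about the stability of that value. The Mt1 difference moved by more than 1 SD to 3.85 and 3.75 (pseudocounts 0.1 and 0.5) and 3.51 (median-of-ratios) in 3-week oocytes, to 2.87 (pseudocount 0.1) and 1.72 (quantile) in 3-month oocytes, and to 1.72 (median-of-ratios) and 1.60 (quantile) in zygotes. Mt2 in 3-week oocytes lost its call at 1.75 (pseudocount 0.1), 1.24 (no filter), 1.11 (median-of-ratios), 1.04 (quantile), 0.77 (array weights) and 1.24 (only the groups compared), and spanned 0.81 to 1.81 with 1 library left out. The scalings turned Mt2 in zygotes to -0.030 and -0.091. Median-of-ratios and quantile scaling turned Mtf1 to -0.064 and -0.019 in 3-week oocytes and to -0.30 and -0.13 in zygotes, gave it calls at -0.39 and -0.33 in 3-month oocytes, where array weights (-0.15) and only the groups compared (-0.15) did too, and left it uncalled at -0.033 and 0.17 in 2-cell embryos, as did only the groups compared (0.24). With 1 library left out, Mtf1 spanned -0.0073 to 0.071 in 3-week oocytes, 0.20 to 0.35 in zygotes and 0.11 to 0.36 in 2-cell embryos. Slc30a1 gained calls in 3-week oocytes at -0.46 (median-of-ratios), -0.41 (quantile) and -0.42 (array weights) and in 3-month oocytes at -0.43, -0.40 and -0.23, and lost its zygote call at 0.25 and 0.20. The cause of these changes was not tested.

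Elsewhere the scalings reversed Mtf1 (0.21 and 0.12) and Slc30a1 (0.25 and 0.60) between wild-type zygotes and oocytes, and Mtf1 between 2-cell embryos and zygotes (-0.056 and -0.019), in the zygote minus GV effect (-0.24 and -0.11) and in the 2-cell minus zygote effect (0.27 and 0.30, with -0.17 to 0.085 when 1 library was left out). Slc39a6 reversed to -0.057 in 3-week oocytes (median-of-ratios) and to -0.20 and -0.14 in 3-month oocytes, with -0.00095 to 0.069 when 1 library was left out. All 305 alternatives of the 21 other named results kept direction and call. The count for wild-type age, 544, was 3246 with array weights, 2482 with only the groups compared and 265 to 318 with 1 library left out. The count for the difference between GV models, 673, was 363 (pseudocount 0.1), 3228 (array weights), 2448 (only the groups compared) and 358 to 767 with 1 library left out. Deviations of same-numbered libraries correlated at -0.069 to 0.058, and 2 of 6 libraries in each comparison with 3 pairs correlated best with their own number, so the numbers are not a pairing. With a replicate block the age count was 92, Mtf1 in 2-cell embryos was 0.23 (adjusted p = 0.126, limma), and the 4 deletion counts were 4358, 7350, 6710 and 9261, against 4081, 6818, 6431 and 9159 without it. FPKM gives no counts, so counting error at low Mt2 is unknown.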

Other observations

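Genes of copper, iron, glutathione and glucocorticoid responses were counted in the 4 deletion comparisons, in which 29.6%, 49.5%, 46.7% and 66.5% of all genes tested were called. The totals were 2, 4, 6 and 6 of 9 copper genes, 3, 7, 4 and 5 of 9 iron genes, 5, 6, 6 and 8 of 10 glutathione genes and 2, 3, 3 and 2 of 5 glucocorticoid genes, so nothing particular to these lists is read from them. Of 9 copper handling genes tested, 2 were called higher in Zp3-Cre 3-week oocytes, 4 in Gdf9-Cre 3-month oocytes and 6 in Zp3-Cre zygotes, with none lower, and 3 were higher and 3 lower in Zp3-Cre 2-cell embryos (limma). Under the median-of-ratios scaling the 3-month counts were 2 higher and 2 lower and the zygote counts 4 and 0. Cox17, a copper chaperone of the mitochondria, averaged 14.3 FPKM in Zp3-Cre zygotes and 1.95 FPKM in wild type (log2 change 2.40), Atox1, a cytosolic copper chaperone, rose by 2.02 in zygotes, and Commd1 rose by 2.46 in 2-cell embryos. Of 9 iron handling genes tested, 3, 6, 3 and 3 were higher and 0, 1, 1 and 2 lower over the same 4 comparisons, and under the median-of-ratios scaling 1, 4, 3 and 3 were higher and 0, 1, 4 and 4 lower. Tfrc, the transferrin receptor gene, averaged 3.83 FPKM in Zp3-Cre 2-cell embryos and 39.1 FPKM in wild type (log2 change -3.13). Ncoa4, which takes ferritin to lysosomes, rose by 2.16 there, and Ftl1, the ferritin light chain gene, which has near-identical copies that could share its reads, averaged 196 FPKM in Gdf9-Cre 3-month oocytes and 43.1 FPKM in wild type (log2 change 2.15).

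Of 10 glutathione and NRF2 target genes, 3, 4, 5 and 5 were higher and 2, 2, 1 and 3 lower, and under the median-of-ratios scaling 2, 2, 4 and 4 were higher and 2, 2, 2 and 4 lower. Hmox1, the heme oxygenase gene, averaged 11.5 FPKM in Gdf9-Cre 3-month oocytes and 1.06 FPKM in wild type (log2 change 2.56). Txnrd1 rose by 2.18 and Gclm by 2.11 in Zp3-Cre zygotes. Of 5 glucocorticoid receptor targets tested, 1, 1, 1 and 0 were higher and 1, 2, 2 and 2 lower. Fkbp5 averaged 48.0 FPKM in Gdf9-Cre 3-month oocytes and 106 FPKM in wild type (log2 change -1.13), Per1 rose by 0.98 in the same comparison, and Tsc22d3 was at -1.86 in Zp3-Cre 2-cell embryos. The medians over all genes were 0.093, 0.20, 0.22 and 0.16 in these comparisons. Granulosa and cumulus markers moved with the 3-month comparison, and their part in these counts was not tested.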
